A study of Mus musculus with 4 samples.

Results

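The genes described here are 40 genes of glycolysis and of the response to low oxygen, listed by name, and 35 of them had a probe set that could be assigned to a single gene on the arrays, of 12394 genes measured in all. Each gene was read from the brightest of its probe sets, meaning the one with the highest mean over the arrays. The 5 that were not measured in this way were Gpi1, Eno1, Pfkfb4, Ankrd37 and Bnip3l, and the 3 probe sets of Bnip3l were shared with another gene. Gapdh was read from a probe set that the array maker placed as a control. The rule takes genes by name and sets no threshold on a measured value, although the list was drawn up with earlier results of these data known.

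The samples were mammary tumours of female nulliparous FVB mice, each array holding RNA pooled from 5 mice, and every group was represented by 1 array. The 4 groups were tumours of MMTV-PAX8PPARg mice given RU486, tumours of MMTV-PAX8PPARg mice given placebo, tumours of wild-type (WT) littermates given RU486 and tumours of WT littermates given placebo. The transgene encodes a fusion of the transcription factor PAX8 with the nuclear receptor PPARg, and the mouse mammary tumour virus promoter that drives it is active in mammary epithelium and responds to progestins and glucocorticoids. All mice, placebo groups included, had received 15 mg of a progestin (Depo-Provera) under the skin and then 4 weekly doses of 1 mg of the carcinogen DMBA by gavage. RU486 (mifepristone), which blocks the progesterone and glucocorticoid receptors, was given in pellets of 2.5 mg with a release time of 60 days, placed 1 day after the last DMBA dose and again after 60 days. The labels give no age at tumour collection and no tumour size.

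Glycolysis breaks glucose down to pyruvate in the cytosol, and lactate dehydrogenase can then turn the pyruvate into lactate. When oxygen is scarce, the prolyl hydroxylases that mark the HIF alpha subunits for destruction slow down, HIF accumulates, and it binds a short DNA core (the hypoxia response element) near genes for glucose uptake, glycolysis, blood vessel growth, pH control and mitophagy. Many tumours use this programme, since their growth outpaces their blood supply and many of them ferment glucose to lactate even with oxygen present.

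The 250 bases before and the first 50 bases after the transcription start were searched for the HIF core, spelled ACGTG or GCGTG, on both strands. A CACGTG counts as a match on each strand. Of the 35 genes, 31 had such a window in RefSeq (GRCm38.p6), with 43 windows in all, and 28 of the 31 genes (90.3%) had at least 1 core. No window was available for Ndrg1, Plod2, Bhlhe40 and Lox, so this share does not cover them. Among all genes measured on the arrays that had a window, 6094 of 9888 (61.6%) had a core. Counted by window, 34 of the members' 43 (79.1%) had a core, against 7111 of 12567 (56.6%) for the genes of the arrays. Of all promoter windows of the same length in RefSeq, 43.8% did. The members' windows had a median GC content of 62.0% and a median of 20 CpG dinucleotides, against 59.0% and 17 for the genes of the arrays, so the members were also richer in the bases that the core contains. Windows are shown for 6 members, 4 of which differed at least 2-fold and in opposite directions in the 2 genotypes (Ero1a, Ddit4, Pdk1 and Car12), and 2 of which are bright glycolytic genes (Ldha and Pgk1). Capitals mark the core on either strand, so that a reverse match reads as CACGT or CACGC.
Ero1a, chr14:45318523-45318822, minus strand: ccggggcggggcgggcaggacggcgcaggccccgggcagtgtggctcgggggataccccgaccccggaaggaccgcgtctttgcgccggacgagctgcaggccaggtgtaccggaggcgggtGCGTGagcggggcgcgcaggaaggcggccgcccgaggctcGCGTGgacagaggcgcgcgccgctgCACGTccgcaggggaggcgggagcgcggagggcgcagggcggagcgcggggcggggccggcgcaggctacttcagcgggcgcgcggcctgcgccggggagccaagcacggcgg
Ddit4, chr10:59951721-59952020, minus strand: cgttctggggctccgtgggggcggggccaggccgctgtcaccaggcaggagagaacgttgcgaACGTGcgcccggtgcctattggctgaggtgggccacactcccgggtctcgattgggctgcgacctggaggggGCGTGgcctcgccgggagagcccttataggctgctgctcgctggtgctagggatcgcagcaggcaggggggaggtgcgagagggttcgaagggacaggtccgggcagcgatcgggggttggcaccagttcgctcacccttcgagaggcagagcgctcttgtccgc
Pdk1, chr2:71872974-71873273, plus strand: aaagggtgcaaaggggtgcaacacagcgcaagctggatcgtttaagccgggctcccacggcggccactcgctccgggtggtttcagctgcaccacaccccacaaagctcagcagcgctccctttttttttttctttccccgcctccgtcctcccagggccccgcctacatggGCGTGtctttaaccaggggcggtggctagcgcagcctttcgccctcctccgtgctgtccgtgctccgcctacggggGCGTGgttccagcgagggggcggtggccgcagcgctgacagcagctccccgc
Car12, chr9:66713436-66713735, plus strand: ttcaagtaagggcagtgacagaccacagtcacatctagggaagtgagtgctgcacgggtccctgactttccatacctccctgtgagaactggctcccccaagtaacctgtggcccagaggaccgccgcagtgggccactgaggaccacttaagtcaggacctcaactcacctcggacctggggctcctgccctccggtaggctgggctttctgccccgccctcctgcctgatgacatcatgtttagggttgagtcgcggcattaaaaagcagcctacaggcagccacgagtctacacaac
Ldha, chr7:46845554-46845853, plus strand: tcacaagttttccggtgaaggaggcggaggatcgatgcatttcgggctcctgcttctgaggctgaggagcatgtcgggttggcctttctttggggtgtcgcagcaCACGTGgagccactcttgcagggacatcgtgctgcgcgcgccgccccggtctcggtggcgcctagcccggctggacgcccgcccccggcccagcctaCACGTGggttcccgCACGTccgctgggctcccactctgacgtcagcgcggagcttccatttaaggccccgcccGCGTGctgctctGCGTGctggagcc
Pgk1, chrX:106186850-106187149, plus strand: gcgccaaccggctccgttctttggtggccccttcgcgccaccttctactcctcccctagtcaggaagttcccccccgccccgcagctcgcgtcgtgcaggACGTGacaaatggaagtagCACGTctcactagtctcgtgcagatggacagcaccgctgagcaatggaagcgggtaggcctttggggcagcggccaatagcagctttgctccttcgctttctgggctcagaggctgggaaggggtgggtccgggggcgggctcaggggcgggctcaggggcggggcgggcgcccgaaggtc

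The Ldha window held 7 matches, more than that of any other member, with each CACGTG counted on both strands. In the windows shown, Ero1a had 3 matches, and Ddit4, Pdk1 and Pgk1 had 2 each. No match was found in the Car12 window. Pdk1 and Ldha each had another window that is not shown, with 0 matches for Pdk1 and 2 for Ldha. These letters describe the windows only, and whether HIF binds any of them in these tumours was not measured.

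Signals are given as deposited, on a linear scale and without alignment of the arrays, and cannot be compared between genes. Differences are log2 differences of signal plus 16 after the array medians were aligned, so that 1 on this scale is 2-fold. A ratio of 2 deposited signals of a gene can therefore differ from the aligned difference. For RU486 minus placebo in PAX8PPARg tumours, Aldoa and Ldha were both at 1.07 with alignment, and at 0.93 and 0.94 without it. Since every group had 1 array, there is no spread between replicates and no test of any single difference, and genes were counted by whether they differed at least 2-fold. The members were bright: 32 of 35 lay at or above the median level of all genes, 10 were among the 1240 brightest genes, and no member's signal lay within the range of the bacterial control probe sets on any array. Adm, Car9 and Eno2 lay below the median level.

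The arrays differed in ways that touch these genes. The highest bacterial control signal was 35.3 on the PAX8PPARg RU486 array, 8.3 on the PAX8PPARg placebo array, 18.5 on the WT RU486 array and 9.6 on the WT placebo array, and the 18 spike-in probe sets were 2.43, 1.00 and 1.59 times their WT placebo signal on the first 3 of these. The 99th percentile of the signals was 10612 and 7032 on the PAX8PPARg RU486 and placebo arrays, against 8243 and 7663 on the WT RU486 and placebo arrays. The ratio of the Gapdh probe sets at the end and at the start of the transcript, a sign of RNA integrity, was 3.01 and 2.89 in PAX8PPARg RU486 and placebo tumours, against 3.33 and 2.51 in WT RU486 and placebo tumours. The mouse Pax8 probe set lay within the bacterial control range on all 4 arrays. Pparg had a signal of 13.2 in PAX8PPARg RU486 tumours, also within that range, and 497.5 in PAX8PPARg placebo tumours. In WT tumours it had 35.4 with RU486 and 75.9 with placebo. The summed signal of 6 adipocyte markers was also highest in PAX8PPARg placebo tumours, at 16699.1. No source used here says whether the Pax8 or the Pparg probe set detects the transgene, so neither checks the genotype labels. Epithelial markers were present in 3 of the 4 tumour pools and low in WT RU486 tumours, where the summed signal of 14 luminal markers (among them Krt8, Krt18 and Epcam) was 6794.7. It was 46709.2 and 40574.4 in PAX8PPARg RU486 and placebo tumours and 47364.8 in WT placebo tumours. In bulk tissue, fewer cells of a type and less RNA per cell cannot be told apart.

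**Figure D1:**
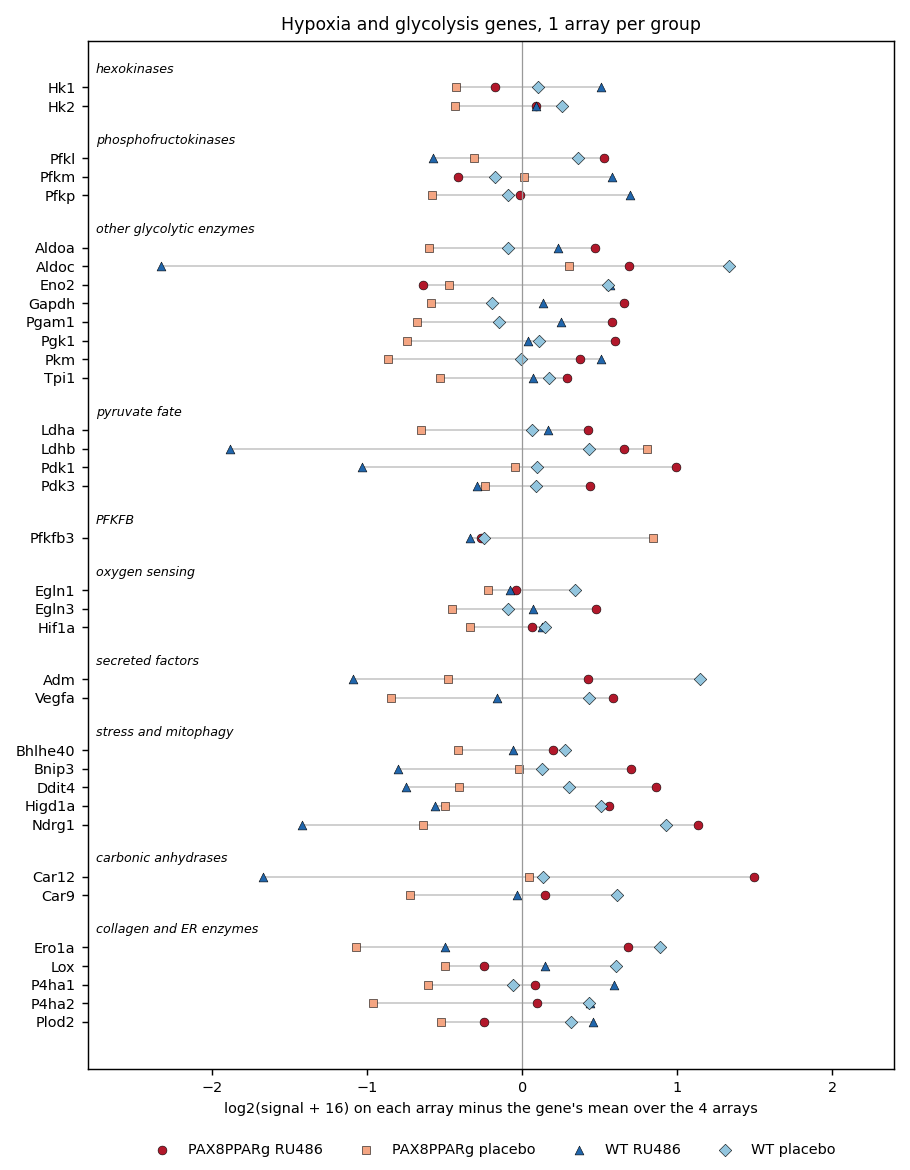
Level of the 35 measured members on the 4 arrays, 1 point per array, as log2(signal + 16) with array medians aligned, minus the gene's mean over the 4 arrays, with the genes grouped by role. PAX8PPARg placebo tumours had the lowest aligned level of the 4 for 21 members (60.0%) and WT RU486 tumours for 12 (34.3%), while PAX8PPARg RU486 tumours had the highest level for 16 (45.7%). Over all genes these shares were 36.7%, 26.7% and 29.2%.

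RU486 was associated with higher signals of glycolysis and hypoxia genes in PAX8PPARg tumours. Of the 35 members, 31 were above 0 in RU486 minus placebo, as were 7370 of 12394 genes and 531 of the 620 brightest genes. The median difference was 0.84, against 0.13 over all genes and 0.455 over the 620 brightest. At least 2-fold higher were 14 members (40.0%), namely Aldoa, Gapdh, Pgk1, Pgam1, Pkm, Ldha, Pdk1, Vegfa, Ndrg1, P4ha2, Car12, Higd1a, Ero1a and Ddit4, where 10.6% of all genes were. At least 2-fold lower was Pfkfb3, where 7.08% of all genes were. How much of this held depended on how the arrays were scaled. After quantile normalization 7 of the 14 were at least 2-fold higher (Pdk1, Vegfa, Ndrg1, P4ha2, Car12, Higd1a and Ero1a), where 864 of 12394 genes were. The median over members was then 0.67, against 0.02 over all genes. Those that dropped below 2-fold were Ddit4, Ldha and the glycolytic enzymes Aldoa, Gapdh, Pgk1, Pgam1 and Pkm.

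The enzymes of the lower part of glycolysis gave some of the brightest signals on the arrays. Gapdh, which oxidises glyceraldehyde-3-phosphate, had signals of 17817.7 in PAX8PPARg RU486 and 8220.9 in PAX8PPARg placebo tumours, against 11876.1 in WT RU486 and 9457.9 in WT placebo tumours. Pgk1, phosphoglycerate kinase, had 10050.7 in PAX8PPARg RU486 and 4348.0 in PAX8PPARg placebo tumours, against 6533.6 in WT RU486 and 6889.1 in WT placebo tumours. Pgam1, phosphoglycerate mutase, had 8830.0 in PAX8PPARg RU486 and 4038.9 in PAX8PPARg placebo tumours, against 6761.2 in WT RU486 and 5114.8 in WT placebo tumours. In all 3 the PAX8PPARg placebo array was lowest, the PAX8PPARg RU486 array highest, and the WT arrays lay between. The differences between RU486 and placebo in PAX8PPARg tumours were 1.25 for Gapdh, 1.34 for Pgk1 and 1.26 for Pgam1.

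Aldoa, the aldolase of most tissues, had signals of 10876.3 in PAX8PPARg RU486 and 5684.0 in PAX8PPARg placebo tumours, against 8863.5 in WT RU486 and 7086.7 in WT placebo tumours. Ldha, the lactate dehydrogenase subunit that favours lactate production, had 10302.3 in PAX8PPARg RU486 and 5362.1 in PAX8PPARg placebo tumours, against 8267.6 in WT RU486 and 7728.4 in WT placebo tumours. Pkm, pyruvate kinase, had 6352.3 in PAX8PPARg RU486 and 2935.1 in PAX8PPARg placebo tumours, against 6693.5 in WT RU486 and 4672.5 in WT placebo tumours. Aldoa and Ldha followed the same order of arrays as Gapdh, whereas Pkm was highest in WT RU486 tumours. Tpi1, triosephosphate isomerase, was 0.82 higher in RU486 than in placebo PAX8PPARg tumours and so stayed below 2-fold.

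The scaling of the arrays mattered for bright genes such as these, and about as much for dim genes, where the median of the third lowest of 20 level bins was 0.59 with medians aligned and 0.14 after quantile normalization. Over the 620 brightest genes, which are 5.0% of all, the median RU486 difference in PAX8PPARg tumours was 0.455 with medians aligned, with 93 genes past 2-fold upward and 5 downward, and 0.0125 after quantile normalization, with 13 upward and 7 downward. The 9 members in that brightest 5.0% had a median of 1.25 with 8 past 2-fold upward, and 0.67 with 1 past 2-fold after quantile normalization. After quantile normalization the differences were 0.22 for Gapdh, 0.35 for Aldoa, 0.39 for Ldha, 0.67 for Pgam1, 0.71 for Pgk1 and 0.81 for Pkm. All 6 kept their sign and none was 2-fold. Quantile normalization gives every array the same distribution of signals, so it removes a shift shared by bright genes whether that shift arose in the tumours or on the array, and the 2 cannot be told apart with 1 array per group.

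**Figure D2:**
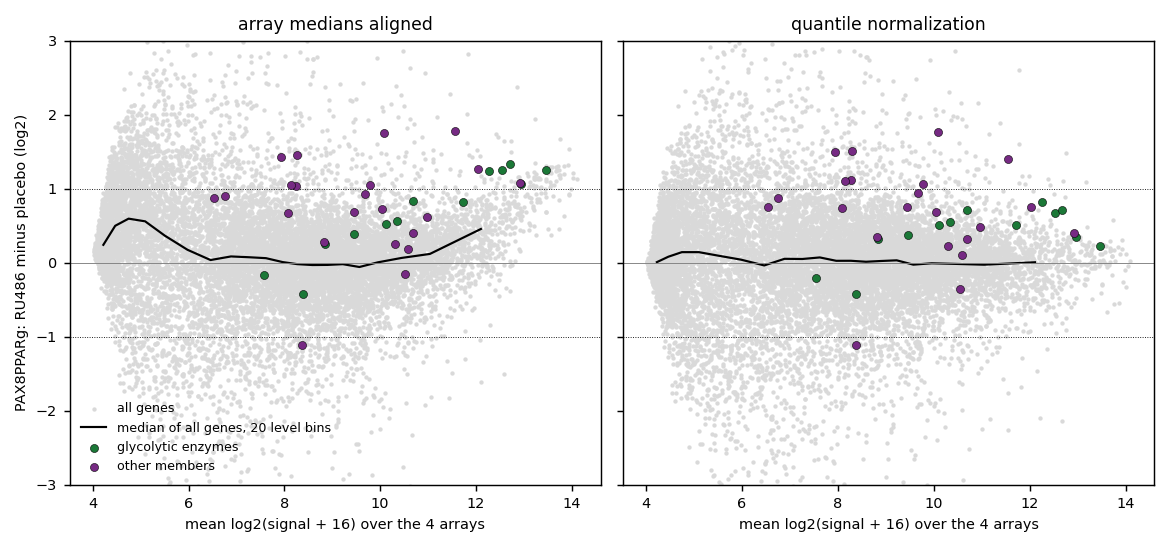
RU486 minus placebo difference in PAX8PPARg tumours (log2) against mean level (log2) for all genes in grey and the members in colour, with array medians aligned in one panel and after quantile normalization in the other, a line through the medians of 20 level bins and dotted lines at 2-fold. Genes outside the axes are not drawn. In the brightest bin the line lies at 0.455 with aligned medians and at about 0 after quantile normalization, and the bright glycolytic enzymes move down with it.

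Neither the hexokinases nor the phosphofructokinases, the enzymes of the first steps of glycolysis, were 2-fold different in PAX8PPARg tumours. Hk1 and Hk2, the broad and the inducible hexokinase, were 0.26 and 0.52 higher in RU486 than in placebo PAX8PPARg tumours. Of the phosphofructokinases, the liver form Pfkl was 0.84 higher, the platelet form Pfkp 0.57 higher and the muscle form Pfkm 0.43 lower (difference -0.43). After quantile normalization Hk2, Pfkl and Pfkp stood at 0.51, 0.71 and 0.54, above Gapdh, Aldoa and Ldha. Eno2, the neuronal enolase, stood at 105.1 in PAX8PPARg RU486 and 133.2 in PAX8PPARg placebo tumours, against 252.3 in WT RU486 and 250.6 in WT placebo tumours, so it separated the genotypes and not the treatments. Over the 13 measured glycolytic enzymes from hexokinase to pyruvate kinase, 5 were at least 2-fold higher with RU486 in PAX8PPARg tumours, 0 were 2-fold lower, and the median difference was 0.82. After quantile normalization 0 of the 13 were 2-fold higher and the median was 0.51.

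The largest differences in PAX8PPARg tumours were in genes of the hypoxia response outside glycolysis. Ero1a, the oxidase that serves disulphide formation in the endoplasmic reticulum, had signals of 1727.7 in PAX8PPARg RU486 and 549.2 in PAX8PPARg placebo tumours, against 722.4 in WT RU486 and 1912.8 in WT placebo tumours. Ndrg1, a stress gene induced by hypoxia and by iron loss, had 6579.9 in PAX8PPARg RU486 and 2096.1 in PAX8PPARg placebo tumours, against 1061.8 in WT RU486 and 5481.8 in WT placebo tumours. Vegfa, the growth factor that drives blood vessel sprouting, had 347.2 in PAX8PPARg RU486 and 131.6 in PAX8PPARg placebo tumours, against 191.6 in WT RU486 and 297.9 in WT placebo tumours. For Ero1a and Vegfa, PAX8PPARg RU486 and WT placebo tumours were the high pair, and PAX8PPARg placebo and WT RU486 tumours the low pair, and the same pairs held for Ndrg1. In PAX8PPARg tumours the RU486 differences were 1.76 for Ero1a, 1.78 for Ndrg1 and 1.43 for Vegfa.

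These 3 and Car12 were the members at least 2-fold higher in PAX8PPARg RU486 tumours under the main scaling and under each of the 3 others tried (quantile normalization, cyclic loess and no alignment). Car12, a carbonic anhydrase of the cell surface that helps to control pH, had signals of 851.2 in PAX8PPARg RU486 and 331.1 in PAX8PPARg placebo tumours, against 76.8 in WT RU486 and 308.9 in WT placebo tumours. Here the 2 placebo arrays were close, and the RU486 arrays lay to either side of them. The RU486 difference of Car12 was 1.45 in PAX8PPARg tumours and 1.51 after quantile normalization. All 5 probe sets of Ndrg1 gave 1.25 to 1.78, the 3 of Ero1a gave 1.71 to 1.76 and the 2 of Vegfa gave 1.43 and 1.78.

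Ddit4 (REDD1), an inhibitor of mTORC1 that is induced by hypoxia and by glucocorticoids, had signals of 7652.5 in PAX8PPARg RU486 and 3470.0 in PAX8PPARg placebo tumours, against 2396.6 in WT RU486 and 4978.9 in WT placebo tumours. Its RU486 difference in PAX8PPARg tumours was 1.27, and 0.75 after quantile normalization. Pdk1, the kinase that keeps pyruvate out of mitochondria by shutting pyruvate dehydrogenase, had 585.9 in PAX8PPARg RU486 and 306.6 in PAX8PPARg placebo tumours, against 126.1 in WT RU486 and 295.1 in WT placebo tumours. Ddit4 and Pdk1 were highest in PAX8PPARg RU486 tumours and lowest in WT RU486 tumours. For Pdk1 the RU486 difference in PAX8PPARg tumours was 1.03, and its other probe set gave 0.66.

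Higd1a, a mitochondrial protein induced by hypoxia, had signals of 1283.7 in PAX8PPARg RU486 and 669.7 in PAX8PPARg placebo tumours, against 558.0 in WT RU486 and 1189.8 in WT placebo tumours. Its brightest probe set gave a difference of 1.06 in PAX8PPARg tumours, but the other 2 gave -0.21 and -0.40, so the direction in that genotype depended on the probe set. P4ha2, a collagen prolyl hydroxylase subunit, had 284.9 in PAX8PPARg RU486 and 142.8 in PAX8PPARg placebo tumours, against 350.3 in WT RU486 and 349.2 in WT placebo tumours. Only the PAX8PPARg placebo array stood apart for P4ha2. Of the 9 members at least 2-fold different in PAX8PPARg tumours that had several probe sets, 8 had the same sign in all of them, with Higd1a as the exception.

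Pfkfb3, the kinase that makes the activator of phosphofructokinase, ran the other way, with 258.0 in PAX8PPARg RU486 and 632.3 in PAX8PPARg placebo tumours, against 234.4 in WT RU486 and 250.8 in WT placebo tumours. The PAX8PPARg placebo array was the high one, and the other 3 lay close together. The difference was -1.11 with the brightest probe set and -0.72 with the other. Its mean over both probe sets was less than 2-fold lower.

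The remaining members were between -0.15 and 0.93 in the same comparison. Egln3, an oxygen-sensing prolyl hydroxylase that is itself a HIF target, had 1116.3 in PAX8PPARg RU486 and 636.0 in PAX8PPARg placebo tumours, a difference of 0.93, and the related Egln1 differed by 0.18. Hif1a, the oxygen-regulated subunit itself, was near level in the brightest probe set, with 1696.2 in PAX8PPARg RU486 and 1407.8 in PAX8PPARg placebo tumours, against 1704.1 in WT RU486 and 1728.6 in WT placebo tumours. Its probe sets disagreed in sign, and HIF-1 alpha is mainly controlled at the protein, which was not measured. Adm (adrenomedullin, a vasodilator) was 0.90, Car9 (a carbonic anhydrase often used as a hypoxia marker) 0.88, Bnip3 (a mitophagy receptor) 0.72, P4ha1 (a collagen prolyl hydroxylase subunit) 0.69, Pdk3 (a pyruvate dehydrogenase kinase) 0.68 and Bhlhe40 (a transcriptional repressor) 0.61 higher. The collagen cross-linking enzymes Plod2 and Lox differed by 0.28 and 0.25.

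In WT tumours RU486 went with lower signals of several hypoxia genes and with little difference in the bright glycolytic enzymes. At least 2-fold lower in RU486 than in placebo WT tumours were 9 members (25.7%), where 8.88% of all genes were, and 0 members were at least 2-fold higher, where 7.46% of all genes were. The 9 were Aldoc, Ldhb, Pdk1, Ndrg1, Adm, Car12, Higd1a, Ero1a and Ddit4. All 9 were at least 2-fold lower under each of the 3 other scalings as well. With the mean of a gene's probe sets 7 of the 9 were left, as Pdk1 and Higd1a dropped below 2-fold. With a pseudocount of 64, 8 were left, as Pdk1 dropped. The median over the 35 members was -0.17, against 0.01 over all genes, and 13 members were above 0, where 6294 of 12394 genes were.

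Aldoc, the brain form of aldolase, had the largest difference of the members in WT tumours, with signals of 116.9 in WT RU486 and 1671.2 in WT placebo tumours and a difference of -3.67. In PAX8PPARg tumours it had 1105.0 with RU486 and 925.5 with placebo. The WT RU486 array was far below the other 3, and its other probe set gave -2.30. Ldhb, the lactate dehydrogenase subunit that favours lactate use, had 364.4 in WT RU486 and 1877.9 in WT placebo tumours, while PAX8PPARg tumours had 2287.4 with RU486 and 2786.8 with placebo. All 4 Ldhb probe sets were lower in WT RU486 than in WT placebo tumours, with differences of -2.32 to -1.71.

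Ndrg1 was -2.35 in WT tumours, and its 5 probe sets ranged from -2.91 to -2.35. Adm had 32.9 in WT RU486 and 214.8 in WT placebo tumours, against 129.7 and 69.6 in the PAX8PPARg RU486 and placebo tumours, a WT difference of -2.24. Car12 was -1.81, Ero1a -1.38, Pdk1 -1.13, Higd1a -1.07 and Ddit4 -1.05 in WT tumours. Just short of 2-fold were Pfkl, with 1037.3 in WT RU486 and 1998.1 in WT placebo tumours, and Bnip3, with 564.2 in WT RU486 and 1092.2 in WT placebo tumours, both at -0.93.

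The glycolytic enzymes of WT tumours had a median difference of 0.32 over 13 genes, with Aldoc alone past 2-fold. Gapdh was 0.33, Pgam1 0.40, Aldoa 0.32, Pkm 0.52 and Pfkp 0.79 higher in RU486 tumours, while Pgk1 was -0.08, Tpi1 -0.10 and Ldha 0.10. Pfkm was 0.75 and Hk1 0.40 higher. The 3 Gapdh probe sets differed in sign in WT tumours, as did the probe sets of Pgk1.

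The low hypoxia genes of WT RU486 tumours lay on the same array as low epithelial markers and high macrophage markers. All 14 luminal markers and 7 of 8 basal markers were at least 2-fold lower in WT RU486 than in WT placebo tumours, with basal sums of 3319.5 and 18576.7, and all 8 macrophage markers (among them C1qb, Csf1r and Mrc1) were at least 2-fold higher, with a summed signal of 39686.3 in WT RU486 tumours against 9948.1 in WT placebo tumours. The lowest luminal marker on that array, Cldn4 at 14.1, lay within the range of the bacterial controls, and Krt8 and Krt18 stood at 2201.0 and 2507.1. The 11 markers of keratinized epithelium summed to 16370.5 in PAX8PPARg RU486 and 1443.2 in PAX8PPARg placebo tumours, against 368.7 in WT RU486 and 7960.4 in WT placebo tumours. All 11 were at least 2-fold higher with RU486 in PAX8PPARg tumours and at least 2-fold lower with RU486 in WT tumours. On the WT RU486 array 8 of the 11 lay within the bacterial control range, and 2 did on the PAX8PPARg placebo array, so those signals are not measured levels. Ero1a, Ndrg1 and Vegfa had the same high pair and low pair of arrays as these keratinization markers. The part of the cell makeup in the differences of the members was not tested.

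Other marker lists differed in PAX8PPARg tumours too. Of 8 basal markers 3 (the keratins Krt5, Krt14 and Krt17) were at least 2-fold higher with RU486 and 3 (the contractile genes Myh11, Cnn1 and Mylk) at least 2-fold lower, and the list summed to 22177.2 and 15850.1 in RU486 and placebo PAX8PPARg tumours. The 6 adipocyte markers were all at least 2-fold lower with RU486, and summed to 2940.1 in PAX8PPARg RU486 and 16699.1 in PAX8PPARg placebo tumours, against 3067.4 in WT RU486 and 6299.1 in WT placebo tumours. Of 6 endothelial markers 4 were at least 2-fold lower with RU486 in PAX8PPARg tumours, with sums of 1457.0 and 3793.5 in RU486 and placebo PAX8PPARg tumours and 1423.5 and 2092.2 in RU486 and placebo WT tumours, so that Vegfa and the endothelial markers differed in opposite directions in that genotype. Of 5 neutrophil markers 4 (S100a8, S100a9, Mmp9 and Csf3r) were at least 2-fold higher with RU486 in PAX8PPARg tumours, while Cxcr2 differed by 0.08. The list summed to 5190.6 and 740.8 in RU486 and placebo PAX8PPARg tumours and 2160.3 and 4374.6 in RU486 and placebo WT tumours. The Csf3r signal of 4.3 in PAX8PPARg placebo tumours lay within the bacterial control range. S100a8 and S100a9 had the same high pair and low pair of arrays as the keratinization markers. The 14 luminal markers summed to 46709.2 and 40574.4 in RU486 and placebo PAX8PPARg tumours, with 2 of them past 2-fold upward and 1 downward. Skeletal muscle, erythroid and fibroblast markers had at most 1 member past 2-fold in either direction in either genotype. The part of these cells in the members' differences was not tested.

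**Figure D3:**
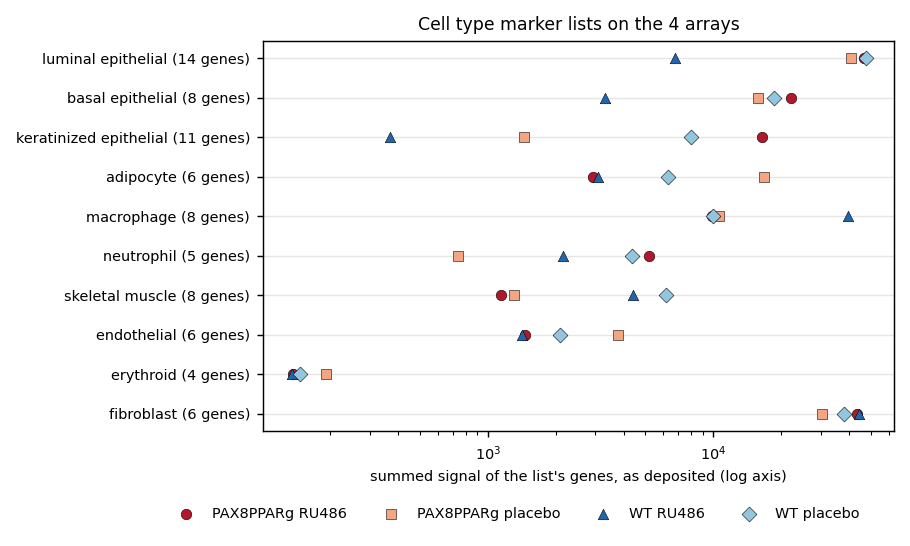
Summed deposited signal (log axis) of the measured genes of 10 cell type lists, 1 point per array. WT RU486 tumours stand apart with a luminal sum of 6794.7 and a macrophage sum of 39686.3. The keratinized sums are highest in PAX8PPARg RU486 tumours (16370.5) and lowest in WT RU486 tumours (368.7), where 8 of the 11 genes lie within the bacterial control range.

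The 2 genotypes had opposite RU486 differences for a group of the members. Of 35 members, 20 (57.1%) were above 0 in PAX8PPARg tumours and below 0 in WT tumours, where 28.2% of all genes were. In 6 members, Pdk1, Ndrg1, Car12, Higd1a, Ero1a and Ddit4, both differences were at least 2-fold, which is 17.1% of the members, where 2.03% of all genes were. After quantile normalization 5 of these 6 were left, since Ddit4 dropped below 2-fold, where 1.93% of all genes were. Without alignment of the arrays 4 were left, since Pdk1 and Higd1a did, where 1.87% of all genes were. With the mean of a gene's probe sets 4 were left, as Pdk1 and Higd1a dropped again, where 1.90% of all genes were. The other 2 probe sets of Higd1a were lower with RU486 in both genotypes. The difference between the 2 genotypes was not tested, as 1 array per group leaves nothing to estimate its error from.

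**Figure D4:**
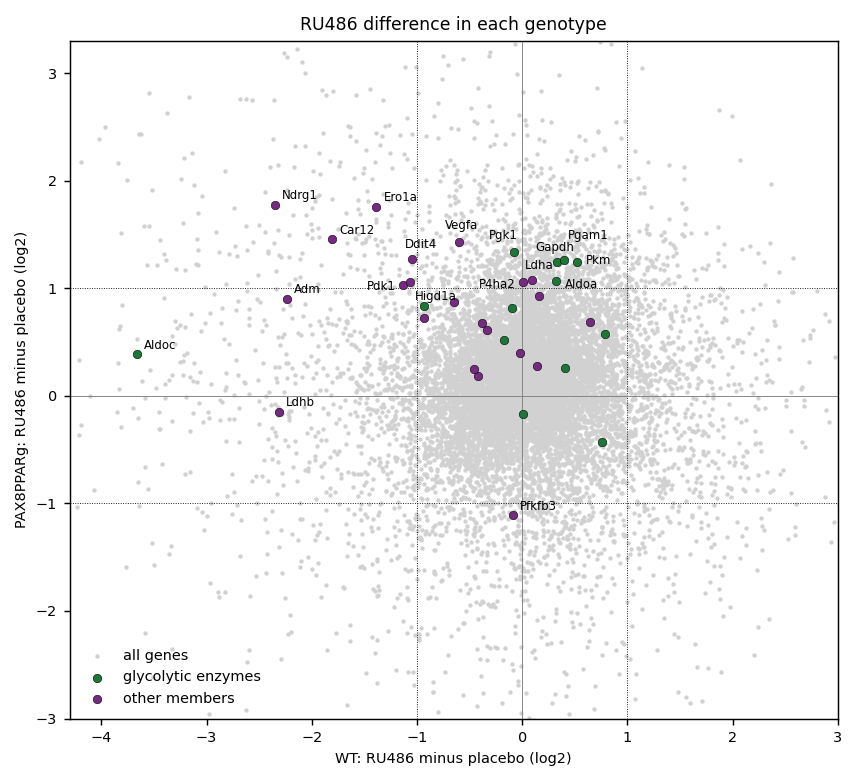
RU486 minus placebo difference (log2) in PAX8PPARg tumours (vertical axis) against that in WT tumours (horizontal axis), for all genes in grey, glycolytic enzymes in green and the other members in purple, with dotted lines at 2-fold. Genes outside the axes are not drawn. Ndrg1, Car12, Ero1a, Ddit4, Higd1a and Pdk1 lie past both lines in the upper left. The bright glycolytic enzymes Gapdh, Pgk1, Pgam1, Aldoa and Pkm lie above the upper horizontal line between -0.08 and 0.52 on the WT axis. Tpi1 lies below that line, at 0.82 on the vertical and -0.10 on the WT axis.

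As a single value for each gene, the RU486 difference in PAX8PPARg tumours minus that in WT tumours had a median of 0.95 over the members, against 0.15 over all genes. It was at least 2-fold positive in 16 members (45.7%), where 15.6% of all genes were, and at least 2-fold negative in 2 (Pfkm and Pfkfb3), where 12.2% of all genes were. The largest values were 4.13 for Ndrg1, 4.05 for Aldoc, 3.26 for Car12, 3.14 for Ero1a and 3.14 for Adm. In Aldoc the value came from the WT difference, as its PAX8PPARg difference was 0.39.

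Under placebo the PAX8PPARg tumours had lower signals than the WT tumours for most of the members. Here 32 of 35 were below 0, as were 7940 of 12394 genes and 560 of the 620 brightest genes. The median was -0.69, against -0.15 over all genes and -0.31 over the 620 brightest. At least 2-fold lower in PAX8PPARg placebo tumours were 10 members (28.6%), namely Aldoc, Eno2, Vegfa, Ndrg1, Adm, P4ha2, Car9, Higd1a, Ero1a and Lox, where 5.49% of all genes were, and at least 2-fold higher was Pfkfb3, where 4.34% of all genes were. Ero1a had the largest difference at -1.96, followed by Adm at -1.62, Ndrg1 at -1.57, P4ha2 at -1.39, Car9 at -1.34 and Vegfa at -1.28. These 6 were at least 2-fold lower under the other 3 scalings too. Aldoc, Higd1a and Lox were not so under any of them, and Eno2 was so under cyclic loess alone. Higd1a was counted from its brightest probe set, and its other 2 probe sets gave 0.03 and 0.21. Its direction between the genotypes under placebo therefore depended on the probe set.

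Car9 had signals of 86.2 in PAX8PPARg RU486 and 45.1 in PAX8PPARg placebo tumours, against 70.4 in WT RU486 and 119.5 in WT placebo tumours. Lox, which cross-links collagen and elastin, had 1041.6 in PAX8PPARg RU486 and 958.3 in PAX8PPARg placebo tumours, against 1321.0 in WT RU486 and 1824.4 in WT placebo tumours. Lox was lower on both PAX8PPARg arrays than on both WT arrays, and the Car9 signals of the genotypes overlapped. Part of the placebo difference is shared by bright genes: over the 1240 brightest genes the median was -0.29, and the PAX8PPARg placebo array was the lowest of the 4 for 56.6% of them, for 36.7% of all genes and for 21 of the 35 members (60.0%). After quantile normalization it was the lowest for 20 members and for 24.9% of all genes. Several marker lists differed between the same 2 arrays. Against WT placebo tumours, 5 of 6 adipocyte markers were at least 2-fold higher in PAX8PPARg placebo tumours, with a summed signal of 16699.1 against 6299.1. At least 2-fold lower were all 11 keratinization markers, with sums of 1443.2 in PAX8PPARg and 7960.4 in WT placebo tumours, 4 of 5 neutrophil markers, with sums of 740.8 and 4374.6, and 7 of 8 skeletal muscle markers, with sums of 1306.0 and 6146.1. On the PAX8PPARg placebo array 2 keratinization, 1 neutrophil and 1 skeletal muscle marker lay within the bacterial control range. The part of these lists in the lower member signals was not tested.

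With RU486 the direction between the genotypes turned for many members. In PAX8PPARg RU486 tumours 11 members (31.4%) were at least 2-fold higher than in WT RU486 tumours, namely Pfkl, Aldoc, Ldhb, Pdk1, Ndrg1, Adm, Bnip3, Car12, Higd1a, Ero1a and Ddit4, where 10.9% of all genes were, and Eno2 was at least 2-fold lower, where 10.2% of all genes were. All 11 were at least 2-fold higher under each of the other 3 scalings. With the mean of a gene's probe sets Higd1a dropped below 2-fold, and its other 2 probe sets gave 0.45 and 0.38. Adm dropped below 2-fold with a pseudocount of 64. The largest were Car12 at 3.17, Aldoc at 3.02, Ndrg1 at 2.56, Ldhb at 2.54 and Pdk1 at 2.02. This comparison uses the WT RU486 array with its low epithelial markers, and all 14 luminal markers were at least 2-fold higher in PAX8PPARg RU486 than in WT RU486 tumours. The median over the members was 0.26, against 0.02 over all genes, and the bright enzymes Gapdh, Pgk1, Pgam1, Aldoa, Ldha and Pkm lay between -0.13 and 0.56.

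**Figure D5:**
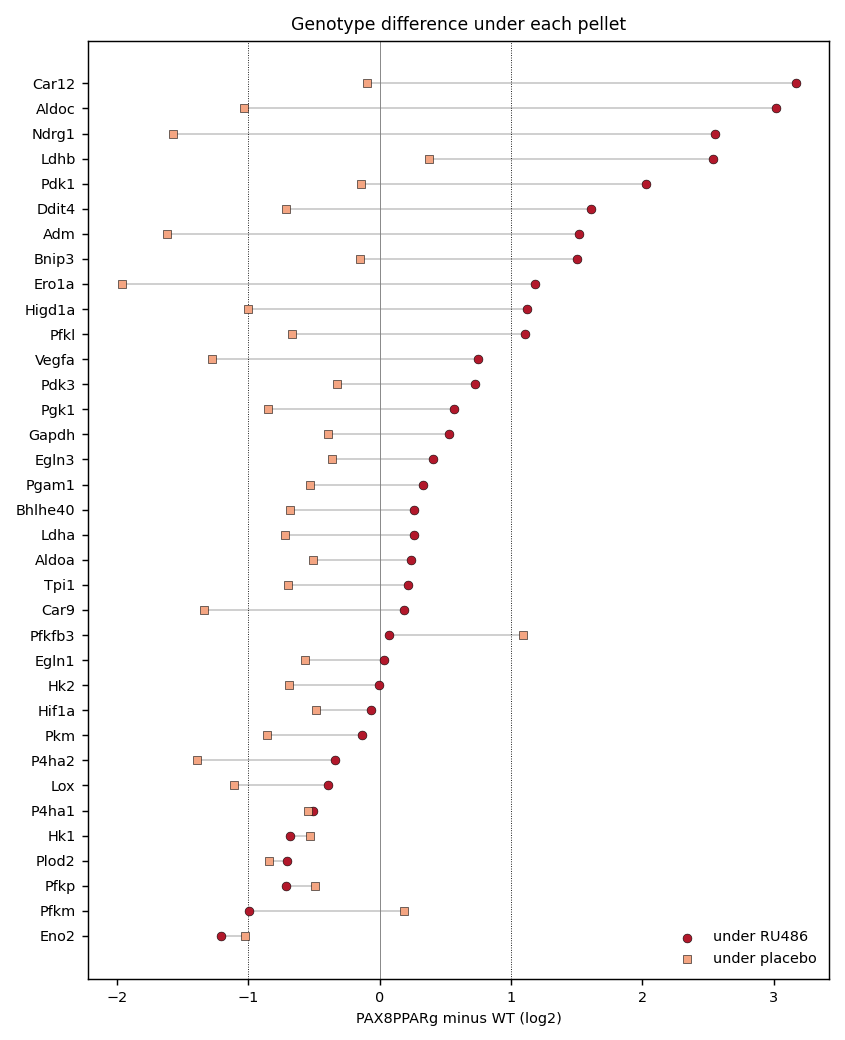
PAX8PPARg minus WT difference (log2) of each measured member under RU486 and under placebo, with dotted lines at 2-fold. Under placebo 32 of 35 members lie below 0, where 7940 of 12394 genes did. Under RU486 24 of 35 lie above 0, where 6324 of all genes did.

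Fits over all 4 arrays with genotype and treatment as additive terms treat an effect as equal in both genotypes, and they had 1 residual degree of freedom. With limma and Benjamini-Hochberg adjustment, 0 of 6197 genes (0.0%) were called for RU486 and 0 of 6197 (0.0%) for PAX8PPARg at an adjusted p of 0.05, and 278 (4.49%) and 274 (4.42%) genes were at or under an unadjusted p of 0.05. Of the 32 members in the fits, 0 were at or under an unadjusted p of 0.05, and their lowest limma adjusted p was 0.97 for RU486 and 0.938 for PAX8PPARg. A difference that runs in opposite directions in the 2 genotypes adds to the residual of such a fit.

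Other genes of the hypoxia response were taken from a list of 40, of which 37 were measured. With RU486 in PAX8PPARg tumours 7 were at least 2-fold higher and 2 lower, with a median of 0.23 against 0.13 over all genes, of which 10.6% were higher and 7.08% lower. In WT tumours 0 were higher and 5 lower, with a median of -0.16 against 0.01 over all genes, of which 7.46% were higher and 8.88% lower. Slc16a3, the lactate exporter MCT4, had signals of 475.2 in PAX8PPARg RU486 and 40.0 in PAX8PPARg placebo tumours, against 265.1 in WT RU486 and 278.7 in WT placebo tumours, so the PAX8PPARg placebo array was low and the WT arrays did not differ much. Slc2a1, the glucose transporter GLUT1, had 5871.7 in PAX8PPARg RU486 and 2375.9 in PAX8PPARg placebo tumours, against 2929.0 in WT RU486 and 5298.0 in WT placebo tumours. Uptake of glucose and export of lactate are the entry and exit of glycolysis, and both transporters were lowest in PAX8PPARg placebo tumours.

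Pgf, a growth factor of the VEGF family, had 432.6 in PAX8PPARg RU486 and 137.5 in PAX8PPARg placebo tumours, against 63.0 in WT RU486 and 342.5 in WT placebo tumours, with differences of 1.68 in PAX8PPARg and -2.18 in WT tumours. Tfrc, the transferrin receptor, differed by 1.43 in PAX8PPARg and -1.49 in WT tumours. Fam162a (a mitochondrial protein) was 1.50, Mif (a cytokine) 1.62 and Nfil3 (a transcription factor) 1.22 higher with RU486 in PAX8PPARg tumours. Stc2, a secreted glycoprotein, ran the other way, with 342.4 in PAX8PPARg RU486 and 3602.9 in PAX8PPARg placebo tumours, against 269.5 in WT RU486 and 944.8 in WT placebo tumours, and so lower with RU486 in both genotypes. Epas1, which encodes HIF-2 alpha and is abundant in endothelium, was also lower with RU486, at -1.27 in PAX8PPARg tumours, where endothelial markers were also lower. Angptl4, an inhibitor of lipoprotein lipase, and Slc2a3, the glucose transporter GLUT3, were -1.37 and -1.09 in WT tumours.

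A further list held other genes of glucose metabolism, among them tissue forms of glycolytic enzymes and genes of glucose synthesis. Of 28 listed, 21 were measured. With RU486 in PAX8PPARg tumours 3 were at least 2-fold higher and 6 lower, with a median of -0.11, where 10.6% of all genes were higher and 7.08% lower. In WT tumours 2 were higher and 6 lower, with a median of -0.46, where 7.46% of all genes were higher and 8.88% lower. Pck1, the enzyme that commits carbon to making glucose or the glycerol of fat, had 23.4 in PAX8PPARg RU486 tumours, within the bacterial control range, and 1579.4 in PAX8PPARg placebo tumours, so it was at least 44.7-fold lower in RU486 tumours on the deposited scale. In WT tumours it had 45.3 with RU486 and 135.3 with placebo. Gpd1, which makes glycerol phosphate and is abundant in fat cells, had 314.3 in PAX8PPARg RU486 and 2727.2 in PAX8PPARg placebo tumours, against 135.8 in WT RU486 and 923.8 in WT placebo tumours. Pck1 and Gpd1 were high on the same array as the adipocyte markers.

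The pyruvate dehydrogenase kinases split by isoform. Pdk2 had 259.8 in PAX8PPARg RU486 and 776.6 in PAX8PPARg placebo tumours, against 191.2 in WT RU486 and 459.1 in WT placebo tumours. Pdk4 had 398.0 in PAX8PPARg RU486 and 890.7 in PAX8PPARg placebo tumours, against 285.6 in WT RU486 and 749.8 in WT placebo tumours. Pdk2 was at least 2-fold lower with RU486 in both genotypes, and Pdk4 was so in WT tumours and just short of it in PAX8PPARg tumours, whereas Pdk1 was higher in PAX8PPARg and lower in WT tumours. Pck2, the mitochondrial relative of Pck1, was -1.03 and -1.17, and Gpd2, the mitochondrial glycerol phosphate dehydrogenase, -1.22 and -0.16, in PAX8PPARg and WT tumours. Fbp1, an enzyme of glucose synthesis, had 119.4 in PAX8PPARg RU486 and 20.5 in PAX8PPARg placebo tumours, against 9.7 in WT RU486 tumours, within the bacterial control range, and 61.8 in WT placebo tumours, so it was at least 3.34-fold lower with RU486 in WT tumours. Slc16a7, the monocarboxylate transporter MCT2, ran opposite to Pdk1, with 63.2 in PAX8PPARg RU486 and 236.1 in PAX8PPARg placebo tumours, against 254.6 in WT RU486 and 64.3 in WT placebo tumours. Eno3, the muscle enolase, was 1.08 and 0.84 higher with RU486 in PAX8PPARg and WT tumours, and its signals were higher in WT tumours, as was the sum of 8 skeletal muscle markers (1143.1 and 1306.0 in RU486 and placebo PAX8PPARg tumours, 4383.1 and 6146.1 in RU486 and placebo WT tumours). Pklr, the pyruvate kinase of liver and red cells, was at least 7.43-fold higher with RU486 in PAX8PPARg tumours, with 61.7 in RU486 and 7.2 in placebo, the second within the bacterial control range, and Fbp2, the muscle relative of Fbp1, was at least 4.78-fold higher with RU486 in WT tumours, with 45.9 in RU486 and 9.5 in placebo, again with the second within that range.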

How the data were processed

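RNA from mammary tumours, pooled from 5 mice for each array, was measured on 4 Affymetrix arrays, 1 per group. The authors deposited 1 intensity per probe set on a linear scale. No source used here gives the algorithm behind it. Every array had a 2% trimmed mean between 500.15 and 500.20. Of the probe sets that were not controls, 20380 had exactly 1 gene symbol in the platform annotation, 691 had several and 1555 had none. Those with 1 symbol were used, and Gapdh was read from control probe sets.

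Values were transformed as log2(intensity + 16) and the array medians were aligned. Quantile and cyclic loess normalization, no alignment, pseudocounts of 1 and 64, the mean of a gene's probe sets and a filter at the median level were the alternatives. Differences were counted at 2-fold. Additive models were fitted with limma over the 6197 genes at or above the median level, after a test on simulated data. Promoter windows came from RefSeq (GRCm38.p6). Python 3.11.15, numpy 2.4.6, pandas 2.3.3, matplotlib 3.10.9, R 4.3.3 and limma 3.58.1 were used.

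Members and gene lists were chosen with earlier results of these data known. All measured members are named. Of the other pathway genes those at least 2-fold different in either RU486 comparison and above the bacterial control range on at least 1 of its 2 arrays are named, and of the cell type lists up to 3 with the highest mean. The exceptions chosen after their values were seen are Cldn4, Krt17, Myh11, Cnn1, Mylk, Cxcr2, Csf3r, Pax8 and Pparg.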

Additional observations from a re-analysis of the deposited data

Results flagged for a closer look

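In 10 genes among the members and the 2 lists of other pathway genes, both RU486 differences were at least 2-fold and had opposite signs. The cell type lists were not searched for this. Over all 12394 genes, 252 (2.03%) were at least 2-fold higher in PAX8PPARg and lower in WT tumours, and 133 were the reverse. The value given for each of the 10 is the log2 RU486 difference in PAX8PPARg tumours minus that in WT tumours. With 1 array per group this difference between the genotypes was not tested.

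Among the hypoxia and glycolysis genes it was 4.13 for Ndrg1, 3.26 for Car12, 3.14 for Ero1a, 2.32 for Ddit4, 2.16 for Pdk1 and 2.13 for Higd1a. For Higd1a the value came from the brightest probe set, and the other 2 probe sets gave 0.42 and 0.17. Among the other hypoxia genes it was 3.86 for Pgf and 2.92 for Tfrc. Among the other genes of glucose metabolism it was 3.62 for Fbp1 and -3.29 for Slc16a7, which was lower with RU486 in PAX8PPARg tumours and higher with RU486 in WT tumours.
The Fbp1 value takes the WT RU486 signal as deposited, and that signal lay within the bacterial control range, so it is not a measured size. Its RU486 difference in WT tumours is known only as at least 3.34-fold lower.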

How the results depend on the processing

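In PAX8PPARg tumours the count of members at least 2-fold higher with RU486 was 14, and it was 7 after quantile normalization, 9 with no alignment and 7 after cyclic loess. Of all 12394 genes, 1317 were higher, and 864, 1029 and 836 in the same order. The single member at least 2-fold lower there became 0 with the mean of a gene's probe sets. Under placebo the 10 members at least 2-fold lower in PAX8PPARg than in WT tumours became 6 after quantile normalization, 6 with no alignment and 6 with a pseudocount of 64. Of all genes, 680 were lower there, and 570, 482 and 382 in the same order. The 1 member higher became 0 with a pseudocount of 64, and the median of -0.69 became -0.42 after cyclic loess. Under RU486 the 1 member at least 2-fold lower in PAX8PPARg tumours became 2 with a pseudocount of 1, 0 with a pseudocount of 64 and 0 with the filter at the median level, where Eno2 was not among the genes kept. The 2 members with a 2-fold negative difference between the RU486 effects became 1 after cyclic loess, 1 with a pseudocount of 64 and 1 with the mean of the probe sets. Except where stated, the cause was not tested. No median over the members changed sign. The median of all genes with RU486 was 0.13 in PAX8PPARg and 0.01 in WT tumours, and 0.02 and -0.01 after quantile normalization, and that of PAX8PPARg against WT under placebo was -0.15 and became -0.01. Of 1210 recomputed values for single genes, 1143 stayed on the same side of 2-fold, 60 dropped below it and 7 passed it. Over all genes, higher ones made up 60.03% of those 2-fold different with RU486 in PAX8PPARg tumours, against 45.86% after quantile normalization, 48.79% with no alignment and 44.49% after cyclic loess. For PAX8PPARg against WT under placebo these shares were 44.17%, 50.86%, 60.69% and 51.27%. The additive fits called 0 members under every alternative run. No paired analysis was possible because each group had 1 array, and no array could be left out for the same reason. With so few arrays, precision is limited throughout by their number.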
